A study of Mus musculus with 24 samples.

Results

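The genes described here encode 10 endoplasmic reticulum chaperones, processing enzymes and partner proteins that ready proteins for the surface of mouse sperm, measured in germ cells of mice with and without a deletion of Argonaute genes. The members are Clgn, Canx, Calr, Calr3, Pdilt, Ace, Tex101, Ly6k, Prss37 and Tpst2. Their rows were found by symbol, through the Ensembl identifiers of GENCODE M21. All 10 were found among the 55536 genes of the count table, and all 10 passed the filter on low counts (10 or more counts in 3 or more libraries) in every comparison.

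RNA was sequenced in bulk from enriched pachytene/diplotene spermatocytes and enriched round spermatids of males aged 10 to 15 weeks on the C57BL/6J background. A deletion on chromosome 4, covering the whole of Ago1 and parts of the adjoining Ago3 and Ago4, was absent (wild-type, Ago413+/+), on 1 chromosome (Ago413+/-, heterozygous) or on both (Ago413-/-, null), so that these genes cannot be told apart. Of 24 libraries 21 were used, since 3 are marked as outliers in their labels: spermatocytes gave 4 libraries of the wild type and 3 of each other genotype, and round spermatids 3 of the wild type and 4 of each other genotype. Each library was made from pooled testes of several mice, and the fractions were enriched by sedimentation and not pure, so the level of a gene in a fraction also holds the RNA of the other cells in it.

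Glycoproteins bound for the sperm surface fold in the endoplasmic reticulum on lectin chaperones. Calnexin (Canx) and calreticulin (Calr) do this in most cells, while calmegin (Clgn) and calsperin (Calr3) are their relatives in the testis, and Pdilt is a protein disulfide isomerase-like partner of calmegin. Mouse sperm that lack one of several of these factors also lack ADAM3, a membrane protein of the ADAM family that is needed for passage from the uterus into the oviduct, or carry it in an altered form. Ace, Prss37, Tpst2, Tex101 and Ly6k belong to the same maturation route downstream of folding.

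Depth lay between 12825105 and 29749058 counts per library. Ago1 had 0 counts in every null library, against 41 to 122 in wild-type and 32 to 86 in heterozygous libraries. Levels below are CPM, counts scaled to a common library size, after TMM scaling of both fractions together. Summed levels of 7 spermatocyte markers (Sycp1, Sycp3, Spo11, Hormad1, Ccna1, Piwil1 and Mlh3) were 751 to 1500 CPM in wild-type spermatocytes and 512 to 641 CPM in wild-type round spermatids, and those of 6 round spermatid markers were 1209 to 2532 and 4855 to 6726 CPM. Markers of elongating spermatids were abundant in both fractions, at 3575 to 8261 CPM in wild-type spermatocytes and 21553 to 32242 CPM in wild-type round spermatids. Sertoli cell markers summed to between 23.6 and 134 CPM and those of Leydig cells to between 3.02 and 22.8 CPM over all groups. Because these are bulk samples, fewer cells of a type and less RNA per cell cannot be told apart.

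Per kilobase of exon, the chaperones Clgn and Calr were the most abundant members in spermatocytes, while the chaperones Canx and Calr3 were among the lower ones. Clgn (ENSMUSG00000002190, chr8:83389867-83428552, plus strand of GRCm38) had the highest mean level in every group when all exons of a gene set its length, with 311 ± 25.1 CPM per kb in wild-type spermatocytes (SD, n = 4) and 218 ± 21.5 in wild-type round spermatids (SD, n = 3). Calr (ENSMUSG00000003814, chr8:84841850-84846934, minus strand) followed in all 3 spermatocyte groups, with 217 ± 22.1 CPM per kb in the wild type (SD, n = 4), and no library of Calr reached the lowest library of Clgn there. With the longest transcript as the length, Calr came before Clgn in wild-type round spermatids, at 242 against 225 CPM per kb, and Clgn stayed first in the other 5 groups. Among all tested genes the levels of Clgn and Calr in wild-type spermatocytes lay at percentiles 99.4 and 98.9.

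Behind them the order was less clear. In wild-type spermatocytes the neighbours Ly6k, Pdilt, Tex101, Ace, Canx, Prss37 and Calr3 followed each other with overlapping libraries at each step, from 94 ± 16.3 CPM per kb for Ly6k down to 24.7 ± 5.98 for Calr3 (SD, n = 4). Tpst2 (ENSMUSG00000029344, chr5:112276691-112315361, plus strand) was last in every group and apart from its neighbour, at 1.22 ± 0.64 CPM per kb in wild-type spermatocytes (SD, n = 4). In round spermatids Ace (ENSMUSG00000020681, chr11:105967945-105989964, plus strand) came after Clgn and Calr in the wild type, at 167 ± 26.3 CPM per kb (SD, n = 3), and overlapped Calr. In the null it came after Clgn alone, at 187 ± 32.6 (SD, n = 4), where its libraries overlapped those of Clgn and of Calr.

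Clgn was above its relative of other tissues and Calr3 below. Per kilobase, Clgn exceeded Canx (ENSMUSG00000020368, chr11:50293961-50325673, minus strand) by 7.17 ± 1.02 times in wild-type spermatocytes (SD, n = 4) and by 7.06 ± 0.193 times in wild-type round spermatids (SD, n = 3). Calr3 (ENSMUSG00000019732, chr8:72424176-72443870, minus strand) reached only 0.116 ± 0.0333 of the level of Calr in wild-type spermatocytes (SD, n = 4) and 0.383 ± 0.044 in wild-type round spermatids (SD, n = 3). The lowest round spermatid library of any genotype had a Calr3 to Calr ratio of 0.234 and the highest spermatocyte library 0.235, so the fractions met only at these extremes.

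**Figure D1:**
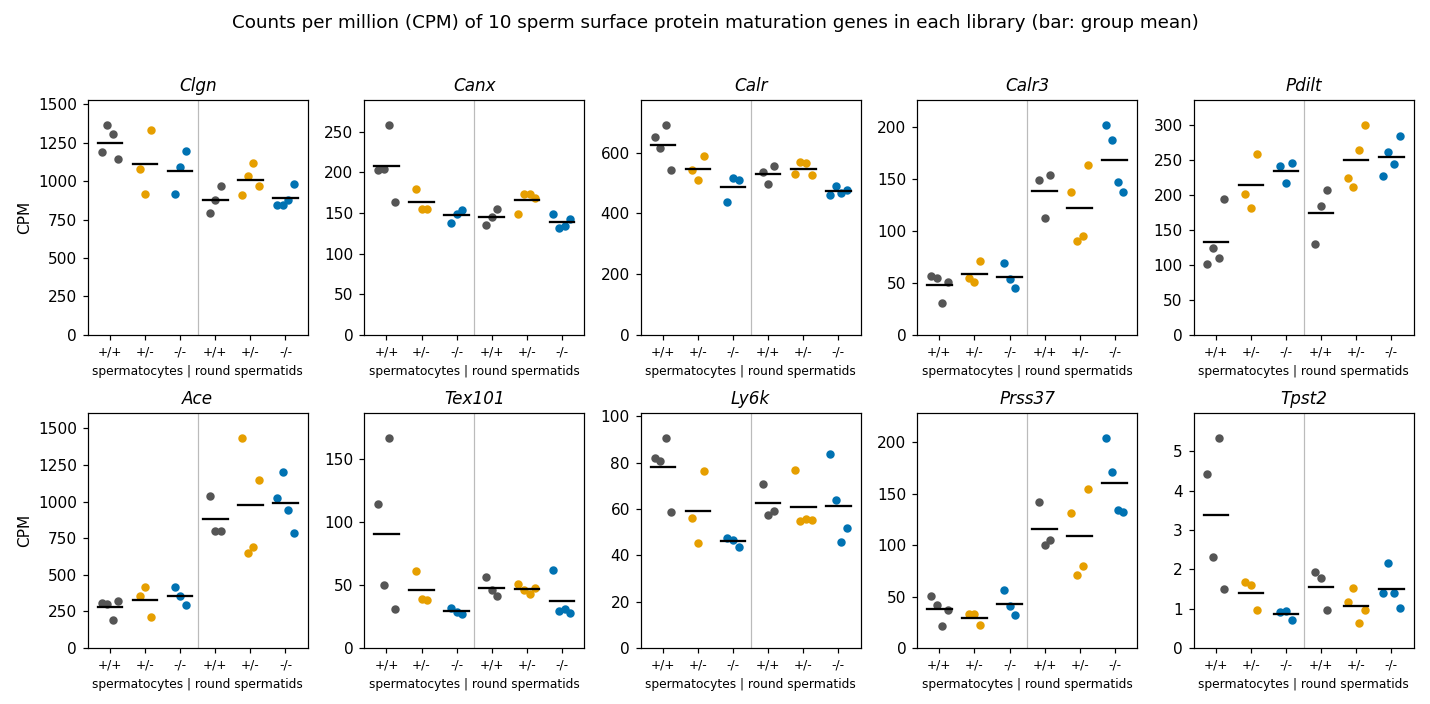
Level (CPM, linear axes from 0) of the 10 genes in each of the 21 libraries, with the 3 genotypes of spermatocytes on the left and of round spermatids on the right of each panel; points are libraries and bars group means. Calr3, Ace and Prss37 are higher in round spermatids in every genotype, while Tex101, Ly6k and Tpst2 have their highest library among wild-type spermatocytes.

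The comparison of round spermatids with spermatocytes asks in which enriched fraction the RNA level of each gene is higher. It does not measure when a gene is transcribed. In the wild type, 6 of the 10 genes were called by edgeR's quasi-likelihood test (a log2 fold change beyond 0.5 in either direction at an adjusted p under 0.05), beside 24.2% of the 20404 genes tested. Calr3, Ace and Prss37 rose 2.86-fold, 3.13-fold and 3.07-fold, and Clgn, Canx and Tpst2 fell 1.42-fold, 1.43-fold and 2.14-fold. Of all genes 12.7% were called higher and 11.4% lower. DESeq2 called the same 6 and Tex101, beside 26.7% of all genes. The libraries of the fractions did not overlap for Calr3, Ace and Prss37 above (17.3% of all genes) and Clgn and Canx below (16.4%), or 33.7% in either direction.

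Calr3, the testis-specific calreticulin, had 56.4, 55.1, 31.2 and 50.9 CPM in wild-type spermatocytes against 149, 113 and 154 CPM in wild-type round spermatids. Every round spermatid library lay above every spermatocyte library, and the log2 difference between them was 1.52 (SE 0.23, edgeR adjusted p = 0.000435). In the heterozygous fractions the levels were 54.4, 51 and 71.2 CPM against 138, 90.7, 95.6 and 164 CPM, and in the null 69.7, 53.8 and 45.3 CPM against 202, 188, 147 and 138 CPM. The groups did not overlap in either genotype, and the log2 differences of 1.05 (SE 0.23, edgeR adjusted p = 0.00593) and 1.59 (SE 0.24, adjusted p = 0.000957) were both called.

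Ace encodes angiotensin-converting enzyme, whose testis form is made from a start inside the gene and is required for male fertility. Its counts sum both forms. Wild-type spermatocytes had 307, 301, 194 and 323 CPM and wild-type round spermatids 1041, 799 and 801 CPM, so that the lowest round spermatid library held more than the highest spermatocyte library, with a log2 difference of 1.65 (SE 0.26, edgeR adjusted p = 0.000482). The heterozygous libraries spread most, with 359, 414 and 210 CPM against 1431, 646, 688 and 1149 CPM, and still did not overlap (1.58, SE 0.27, edgeR adjusted p = 0.00183). In the null the levels were 415, 355 and 291 CPM against 1023, 1203, 943 and 788 CPM, again without overlap (1.48, SE 0.27, edgeR adjusted p = 0.00112).

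Prss37 (ENSMUSG00000029909, chr6:40514824-40519508, minus strand) encodes a serine protease-like protein that is needed for mature ADAM3. It had 50.8, 41.8, 21.3 and 36.9 CPM in wild-type spermatocytes and 142, 100 and 105 CPM in wild-type round spermatids, with no overlap (1.62, SE 0.28, edgeR adjusted p = 0.000566). The heterozygous libraries had 33.1, 32.9 and 22.5 CPM against 131, 71.3, 79.5 and 155 CPM (1.89, SE 0.30, adjusted p = 0.00183) and the null libraries 57, 41.1 and 32.1 CPM against 204, 171, 134 and 132 CPM (1.88, SE 0.30, adjusted p = 0.000957). Among all genes, 8.89% were called in the heterozygous and 17.1% in the null comparison, and Calr3, Ace and Prss37 were the only members called there by edgeR or DESeq2, all of them higher in round spermatids (7.07% and 11.7% of all genes). DESeq2 called 11.2% and 19.9% of all genes. Groups without overlap, higher in round spermatids, were found for 10.9% and 18.7% of all genes. All 6 elongating spermatid markers were called higher in round spermatids by edgeR in each genotype, with medians of 1.89, 1.72 and 2.01 on the log2 scale in the wild type, heterozygous and null. Of the 6 round spermatid markers 2, 1 and 1 were called, with medians of 0.47, 0.06 and 0.20, and their sum was mostly Tnp1 (1194 CPM in wild-type spermatocytes and 4601 CPM in wild-type round spermatids on average). Spermatocyte markers had medians of -1.58, -0.60 and -0.83, with 6, 0 and 2 of 7 called lower by edgeR. Markers of other cells also moved. The 6 spermatogonia markers summed to 21.6 to 28.6 CPM in wild-type spermatocytes and 37.5 to 46.3 CPM in wild-type round spermatids. Their sums overlapped between the fractions of the other genotypes. The 2 erythrocyte markers that passed the filter summed to 0 to 0.223 CPM in wild-type spermatocytes and 0.147 to 1.1 CPM in wild-type round spermatids. Of the 7 macrophage markers 4 were called higher in round spermatids by edgeR in each genotype, with medians of 1.89, 1.97 and 1.53. Sertoli markers had medians of 0.46, 0.16 and 1.51, and edgeR and DESeq2 each called 3 of 6 higher in the null and 0 in the other genotypes. The 5 Leydig markers had a median of -1.51 in the heterozygous comparison, where edgeR called 1 and DESeq2 2 lower. The part of these markers in the values of Calr3, Ace and Prss37 was not tested. The heterozygous Calr3 call was lost when only the groups compared were fitted (1.05, edgeR adjusted p = 0.0506).

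The bases before the RefSeq starts of these 3 genes (GRCm38.p6) are shown because the genes moved together between the fractions. For Ace and for Calr3 both RefSeq starts are given, an upstream one and one inside the gene. Windows end where an annotated exon of the gene begins. Capitals mark TGAGGTCA, a variant of the cAMP response element TGACGTCA, a sequence bound by CREB and CREM factors. Both motifs were searched on both strands in windows from 250 bases before to 50 bases after each start, and they were chosen after the sequences had been seen.
Ace, internal start, chr11:105974939-105975188, plus strand: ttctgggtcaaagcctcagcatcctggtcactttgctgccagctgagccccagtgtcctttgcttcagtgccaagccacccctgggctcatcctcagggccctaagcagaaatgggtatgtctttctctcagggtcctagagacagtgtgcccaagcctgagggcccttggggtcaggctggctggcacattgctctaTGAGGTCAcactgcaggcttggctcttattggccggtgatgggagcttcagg
Ace, upstream start, chr11:105967698-105967944, plus strand: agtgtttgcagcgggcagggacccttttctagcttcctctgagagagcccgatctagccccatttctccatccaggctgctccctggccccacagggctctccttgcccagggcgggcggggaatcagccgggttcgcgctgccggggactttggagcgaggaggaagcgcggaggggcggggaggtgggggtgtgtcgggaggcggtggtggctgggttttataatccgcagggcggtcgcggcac
Calr3, upstream start, chr8:72443871-72444028, minus strand: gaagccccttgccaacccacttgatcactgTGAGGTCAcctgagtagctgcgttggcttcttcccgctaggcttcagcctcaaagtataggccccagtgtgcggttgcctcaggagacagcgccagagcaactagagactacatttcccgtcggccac
Calr3, internal start, chr8:72435157-72435406, minus strand: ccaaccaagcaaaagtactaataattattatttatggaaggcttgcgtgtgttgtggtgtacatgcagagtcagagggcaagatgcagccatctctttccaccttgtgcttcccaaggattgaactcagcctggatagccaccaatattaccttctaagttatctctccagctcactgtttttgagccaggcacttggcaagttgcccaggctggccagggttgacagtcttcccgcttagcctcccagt
Prss37, chr6:40519509-40519758, minus strand: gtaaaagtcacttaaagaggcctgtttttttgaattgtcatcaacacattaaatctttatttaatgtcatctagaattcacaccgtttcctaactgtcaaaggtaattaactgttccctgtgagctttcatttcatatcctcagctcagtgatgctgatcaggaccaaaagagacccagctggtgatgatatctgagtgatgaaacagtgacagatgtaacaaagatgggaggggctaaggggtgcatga

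TGAGGTCA stood at position -52 of the internal Ace window and at position -220 of the upstream Calr3 window, counted back from the RefSeq start. The upstream Calr3 bases shown end at position -93, where an annotated exon of the gene begins. TGAGGTCA occurred in 712 of 32851 windows of all genes (2.17%). It was not in the upstream Ace window, the internal Calr3 window or the Prss37 window. TGACGTCA was in 588 of the 32851 windows (1.79%) and in 0 of the 12 windows of the 8 members that had one. A match is a description of letters and not of a bound site.

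Clgn, needed for the assembly of ADAM dimers, had 1187, 1363, 1304 and 1145 CPM in wild-type spermatocytes and 794, 877 and 967 CPM in wild-type round spermatids. The round spermatid libraries were all lower, and the log2 difference of -0.51 (SE 0.14, edgeR adjusted p = 0.00892) lay just past the threshold on its size. Canx had 203, 204, 258 and 164 CPM against 135, 145 and 155 CPM, again without overlap (-0.51, SE 0.13, edgeR adjusted p = 0.00682). Calr, with 652, 615, 690 and 541 CPM against 535, 498 and 555 CPM, overlapped and was not called (-0.24, SE 0.11, edgeR adjusted p = 0.12).

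Tpst2, a Golgi enzyme that adds sulfate to tyrosines of secreted and membrane proteins, is the scarce member. It had 4.43, 2.31, 5.33 and 1.51 CPM in wild-type spermatocytes, from 31 to 110 counts, and 1.93, 1.77 and 0.964 CPM in wild-type round spermatids, from 14 to 48 counts. The libraries overlapped, and the log2 difference was -1.10 (SE 0.40, edgeR adjusted p = 0.044). The calls for Clgn, Canx and Tpst2 depended on single libraries and were lost in 3, 2 and 5 of the 7 fits that left out 1 library. Without wild-type spermatocyte replicate 4, or without wild-type round spermatid replicate 1, only 3 members were called, while without wild-type spermatocyte replicate 5 there were 8, and without any other library 5 or 6. Of all genes 3394 of 20348, 4047 of 20342 and 6398 of 20262 were called in these 3 fits, against 4934 of 20404 with every library. With only the groups compared, Clgn (-0.48) and Canx (-0.49) fell short of the threshold on size and Tpst2 was at an edgeR adjusted p of 0.0955. Calr3, Ace and Prss37 were called in each of these fits.

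In the heterozygous and null comparisons, Clgn differed by -0.14 (SE 0.13) and -0.27 (SE 0.13) on the log2 scale, Canx by 0.02 (SE 0.13) and -0.08 (SE 0.13), and Tpst2 by -0.40 (SE 0.41) and 0.80 (SE 0.42), with edgeR adjusted p-values from 0.177 to 0.949. None of these was called, although all 4 null round spermatid libraries of Tpst2 were above the 3 null spermatocyte libraries. Whether the fraction difference itself depended on the genotype is the same contrast as whether the genotype difference depended on the fraction, which is given further on.

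**Figure D2:**
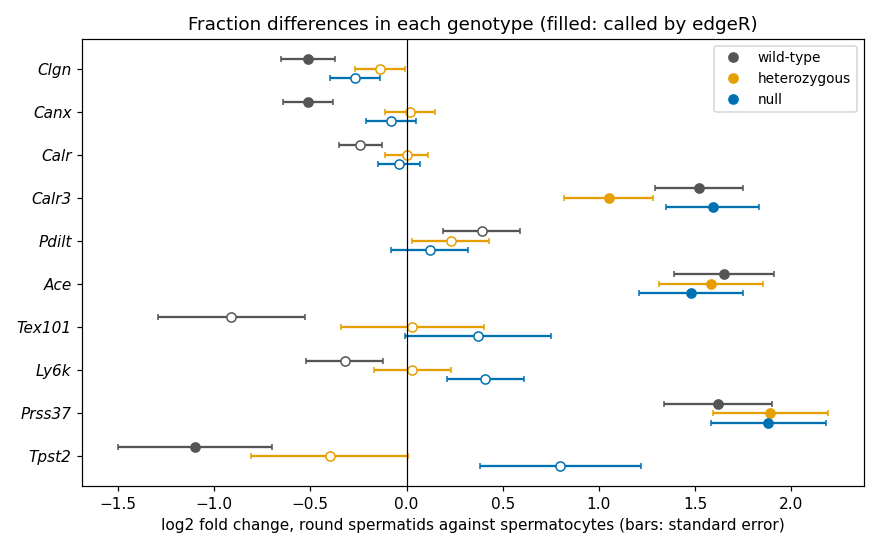
Log2 fold change of the 10 genes in round spermatids against spermatocytes within each genotype (edgeR, 1 fit of 6 groups; points are estimates, bars standard errors, filled points are called). Calr3, Ace and Prss37 lie between 1.05 and 1.89 in all 3 genotypes, while Tpst2 runs from -1.10 in the wild type to 0.80 in the null.

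The libraries marked as outliers stood apart in Calr3, Ace and Prss37. The spermatocyte wild-type library left out (replicate 3) had 651 CPM of Ace, 83.5 of Calr3 and 69.6 of Prss37, above every other wild-type spermatocyte library, and the heterozygous one (replicate 4) had 553, 76.7 and 61 CPM. The round spermatid wild-type library left out (replicate 3) had 352 CPM of Ace, 42.1 of Calr3 and 27.1 of Prss37, below every other wild-type round spermatid library. With all 3 added back, no member was called between the wild-type fractions (Ace 1.07, edgeR adjusted p = 0.063; Calr3 1.04, adjusted p = 0.063; Prss37 1.08, adjusted p = 0.0677), nor was any of the 20542 genes then tested. No member and no gene was called between the heterozygous fractions either. Between the null fractions, none of whose libraries is marked as an outlier, the same 3 genes were still called, among 2275 of 20542 (Calr3 1.59, edgeR adjusted p = 0.0184; Ace 1.48, adjusted p = 0.0188; Prss37 1.88, adjusted p = 0.0184).

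The comparison of null with wild-type spermatocytes asks what the loss of the Argonaute genes does to these transcripts in meiosis. None of the 10 genes was called by edgeR, beside 0.0411% of the 19450 genes tested, while 6 had an unadjusted p under 0.05, as did 5907 of all 19450 genes. DESeq2, the tool of the study, called 4 of them, beside 15.6% of all genes: Tpst2, Tex101 and Ly6k lower (6.48% of all genes) and Pdilt higher (9.08%). The libraries did not overlap for 5 members, beside 27.1% of 20404 genes: Pdilt lay above (12.8%) and Canx, Calr, Ly6k and Tpst2 below the wild type (14.2%).

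Tex101 (ENSMUSG00000062773, chr7:24668007-24676675, minus strand) encodes a germ cell protein with a glycosylphosphatidylinositol (GPI) anchor that binds ADAM3 and is shed as sperm mature. It had 114, 49.7, 166 and 31.1 CPM in wild-type spermatocytes, 61.3, 38.6 and 38.4 CPM in heterozygous and 31.9, 28.5 and 27.1 CPM in null spermatocytes. The null libraries were close together and the wild-type libraries spread widely, the lowest of them (replicate 5) falling below the highest null library. The log2 difference was -1.60 (SE 0.44, edgeR adjusted p = 0.0618, DESeq2 adjusted p = 0.00792).

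Ly6k (ENSMUSG00000044678, chr15:74796874-74799986, minus strand), a GPI-anchored partner of Tex101, had 82, 80.7, 90.4 and 58.7 CPM in wild-type, 55.9, 45.4 and 76.2 CPM in heterozygous and 47.5, 46.7 and 43.7 CPM in null spermatocytes. All null libraries were below all wild-type libraries, and the heterozygous ones reached into both (null against wild-type -0.74, SE 0.20, edgeR adjusted p = 0.0616, DESeq2 adjusted p = 0.0162). Tpst2 had 1.67, 1.61 and 0.96 CPM in heterozygous and 0.931, 0.943 and 0.708 CPM in null spermatocytes, all null libraries lying below the wild-type values given above. Its difference was the largest of the members, at -1.95 in log2 terms (SE 0.45, edgeR adjusted p = 0.0599, DESeq2 adjusted p = 0.00243), on 17 to 20 counts per null library.

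Pdilt (ENSMUSG00000030968, chr7:119486587-119523489, minus strand) went the other way. Wild-type spermatocytes had 102, 124, 110 and 194 CPM, heterozygous 201, 182 and 259 CPM and null 241, 217 and 246 CPM. The null libraries were all above the wild type, whose replicate 5 came closest, and the estimate was 0.84 (SE 0.22, edgeR adjusted p = 0.0599, DESeq2 adjusted p = 0.0113). Canx with 138, 149 and 154 CPM and Calr with 436, 517 and 511 CPM in the null were below the wild-type libraries, with log2 fold changes of -0.47 (SE 0.16, edgeR adjusted p = 0.0805) and of -0.34 (SE 0.13, adjusted p = 0.113). Without wild-type replicate 4 these values were -0.30 and -0.23, and without replicate 5 they were -0.56 and -0.39. Clgn at 913, 1089 and 1197 CPM overlapped the wild type, with a difference of -0.21 (SE 0.15, edgeR adjusted p = 0.341).

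The 3 genes that were higher in round spermatids overlapped between the genotypes in spermatocytes. The null differed from the wild type by 0.23 (SE 0.24) for Calr3, 0.35 (SE 0.24) for Ace and 0.22 (SE 0.29) for Prss37 on the log2 scale, with edgeR adjusted p-values of 0.508, 0.332 and 0.614. Without null replicate 1 these differences were 0.01, 0.18 and -0.06. With the outlier libraries added back, those of Calr3 and Ace were 0.08 and 0.05.

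Wild-type replicate 5 decided how many members passed. Without it edgeR called 5 of the 10 (Canx, Pdilt, Tex101, Ly6k and Tpst2, with adjusted p-values from 0.00302 to 0.0202), and without any other library it called 0. Over all genes the same omission moved the calls from 8 of 19450 to 4526 of 19181. Its library number in the labels is 78, while wild-type replicates 1, 2 and 4 have 30, 36 and 42, null replicate 1 has 54 and null replicates 2 and 3 have 84 and 90. Among libraries numbered above 60, wild-type replicate 5 had 31.1 CPM of Tex101 against 28.5 and 27.1 in the null, 58.7 of Ly6k against 46.7 and 43.7, 1.51 of Tpst2 against 0.943 and 0.708, and 194 of Pdilt against 217 and 246. Below 60, null replicate 1 had 31.9 CPM of Tex101 against 114, 49.7 and 166 in the wild type, 47.5 of Ly6k against 82, 80.7 and 90.4, 0.931 of Tpst2 against 4.43, 2.31 and 5.33, and 241 of Pdilt against 102, 124 and 110. The null values lay outside the wild-type values on both sides, with wider gaps below 60. For Ly6k, Tpst2 and Pdilt this had to hold, since their null and wild-type libraries did not overlap at all. Each side also held a single library of 1 genotype, so no conclusion was drawn from the split. With library number above 60 as a term, the differences were -0.99 for Tex101, -0.59 for Ly6k, -1.49 for Tpst2 and 0.73 for Pdilt, with edgeR adjusted p-values of 0.252, 0.184, 0.168 and 0.164. The labels do not say what the number stands for.

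**Figure D3:**
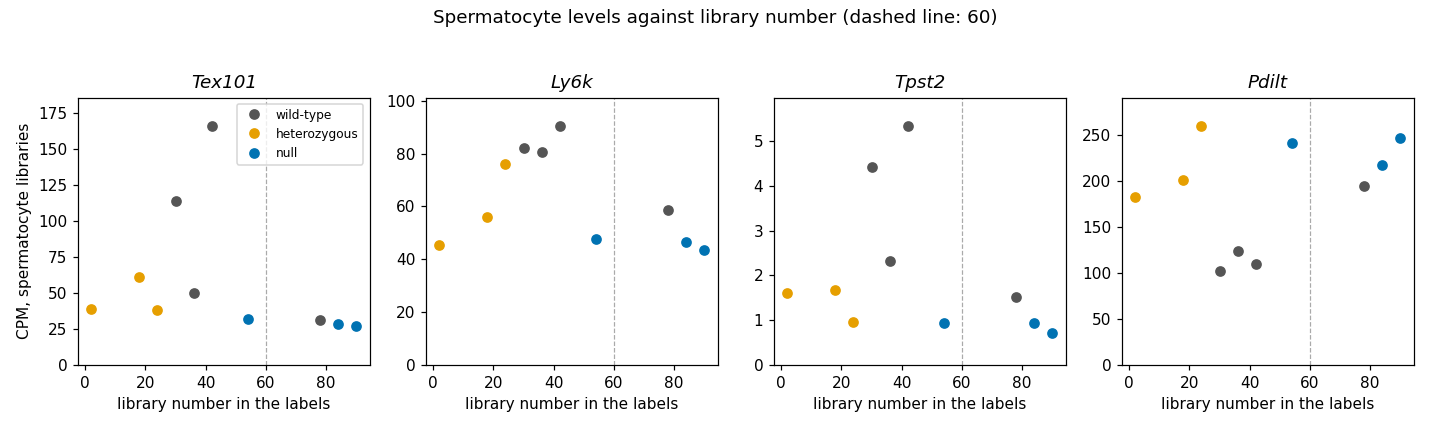
Level (CPM, linear axes from 0) of Tex101, Ly6k, Tpst2 and Pdilt in the 10 spermatocyte libraries against the library number of the labels, 1 point per library, with a dashed line at 60. The wild-type library numbered 78 lies nearer to the null libraries than the wild-type libraries numbered 30, 36 and 42 do.

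Marker levels moved with the same comparison. The 7 spermatocyte markers summed to 1236, 906, 1500 and 751 CPM in wild-type and to 465, 724 and 662 CPM in null spermatocytes, without overlap, and the lowest wild-type sum was that of replicate 5. The 6 spermatogonia markers (Zbtb16, Gfra1, Kit, Dmrt1, Stra8 and Sohlh1) summed to 21.6, 27.5, 28.6 and 28.5 CPM against 56.2, 35.9 and 37.1 CPM, also without overlap. The summed round spermatid markers overlapped, at 1209 to 2532 CPM in wild-type and 1870 to 3522 CPM in null spermatocytes, but all 6 had a positive log2 fold change, with a median of 0.65 beside -0.03 over all genes, and DESeq2 called Izumo1. One of the 6, Acrv1 (0.74, SE 0.26), was picked by the study for staining from its own expression results, these libraries among them, so the list is not independent evidence of its direction. All 7 spermatocyte markers had a negative log2 fold change, with a median of -1.01, and DESeq2 called 3 of them lower (Sycp3, Hormad1 and Piwil1). For spermatogonia 5 of 6 were positive, with a median of 0.75, and DESeq2 called Kit and Stra8 higher. EdgeR called none of these markers. All 6 Sertoli markers had a negative one, with a median of -0.74, and neither tool called any. Their sums overlapped, at 42.3 to 126 CPM in wild-type and 26.3 to 49.5 CPM in null spermatocytes. The 7 macrophage markers summed to 4.39, 4.39, 3.1 and 5.05 CPM in wild-type and to 11.4, 4.95 and 7.79 CPM in null spermatocytes, with overlap. Of the 4 that could be tested 3 were positive, with a median of 1.30, and DESeq2 called Adgre1 and Cd14 higher while edgeR called 0. The part of these shifts in the values of the 10 genes was not tested.

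Heterozygous spermatocytes were compared with the same wild-type libraries, so both comparisons share their controls. None of the members was called by edgeR (0.0257% of all genes), 2 had an unadjusted p under 0.05 (Pdilt and Tpst2), as did 4794 of all genes, and DESeq2 called Pdilt alone (6.31% of all genes). The log2 difference was 0.73 for Pdilt (SE 0.22, edgeR adjusted p = 0.124), -1.20 for Tpst2 (SE 0.43, adjusted p = 0.137), -0.91 for Tex101 (SE 0.43, adjusted p = 0.207) and -0.35 for Ly6k (SE 0.20, adjusted p = 0.28). For the other members it ran from -0.31 for Prss37 to 0.32 for Calr3. The Tex101 value moved to -0.39 without wild-type replicate 4 and to -1.19 without replicate 5. That of Ly6k moved to -0.58 without heterozygous replicate 3 and to -0.20 without heterozygous replicate 2. Without wild-type replicate 5, edgeR called 3 members and 2966 of 19181 genes, against 5 of 19450 with it. Spermatogonia markers summed to 50.4, 63.4 and 50.7 CPM in heterozygous spermatocytes, above the wild-type libraries, with a median log2 fold change of 1.00 and 1 edgeR call. Medians were -0.94 for the spermatocyte, 0.71 for the round spermatid and 1.18 for the Leydig markers, and the part of these in the values of the members was not tested. Between null and heterozygous spermatocytes edgeR called none (0.00514% of all genes), with no unadjusted p under 0.05, and DESeq2 called none (0.0206%).

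In round spermatids the differences between null and wild-type were smaller for most members. None was called by edgeR, beside 0.0518% of 19310 genes, and only Pdilt had an unadjusted p under 0.05, as did 3734 of all genes. Pdilt had 130, 184 and 208 CPM in wild-type, 225, 212, 264 and 300 CPM in heterozygous and 228, 262, 244 and 285 CPM in null round spermatids. Every heterozygous and null library was above every wild-type library, and the log2 fold change of null against wild-type was 0.53 (SE 0.17, edgeR adjusted p = 0.132). DESeq2 called Pdilt at an adjusted p of 0.0495, and no other member, beside 3.64% of all genes. The heterozygous difference was also 0.53 (SE 0.17), with an edgeR adjusted p of 0.551 and a DESeq2 adjusted p of 0.373, and it shares its wild-type libraries with the null. Without wild-type round spermatid replicate 1, the lowest library of Pdilt, the null and heterozygous values were 0.35 (edgeR adjusted p = 0.405) and 0.33 (adjusted p = 0.968). Of all genes 4.43% had every heterozygous library above every wild-type library.

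Spermatocyte markers summed to 404, 349, 449 and 443 CPM in null against 641, 512 and 563 CPM in wild-type round spermatids, without overlap, and all 6 round spermatid markers had a positive log2 fold change, with a median of 0.34 beside 0.03 over all genes. The 7 macrophage markers summed to 24, 20.7, 19.9 and 16.3 CPM in null against 13.9, 14.2 and 10.3 CPM in wild-type round spermatids, also without overlap, with 6 of 7 positive, a median of 1.41 and no call by either tool. The part of these markers in the difference of Pdilt was not tested.

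Calr was the other member without overlap in round spermatids, with 462, 490, 467 and 476 CPM in the null against 535, 498 and 555 CPM in the wild type (-0.19, SE 0.11, edgeR adjusted p = 0.361). Over all genes 18.7% did not overlap between these groups, 8.82% above as Pdilt and 9.92% below as Calr. Tex101 had 61.6, 29.7, 31.3 and 28.2 CPM in null against 56.2, 46.1 and 41.6 CPM in wild-type round spermatids. Replicate 1 of the null was the highest library and the other 3 null libraries were below the wild type, so that the difference was -0.39 (SE 0.21, edgeR adjusted p = 0.312), and -0.70 without that replicate.

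Prss37 differed by 0.43 (SE 0.22, edgeR adjusted p = 0.304), Calr3 by 0.25 (SE 0.18, adjusted p = 0.465) and Ace by 0.14 (SE 0.22, adjusted p = 0.766) between null and wild-type round spermatids, with overlapping libraries. With 1 library left out these values ran from 0.32 to 0.60, from 0.13 to 0.33 and from 0.04 to 0.27. Canx, Ly6k, Tpst2 and Clgn differed by -0.08 (SE 0.11), -0.06 (SE 0.17), -0.12 (SE 0.34) and -0.01 (SE 0.14). Of the remaining comparisons of round spermatids, edgeR and DESeq2 called no member for heterozygous against wild-type (0.0207% and 0.0363% of all genes), where Pdilt was the only member with an unadjusted p under 0.05 (1715 of all genes). For null against heterozygous they also called none (0.00518% and 0.104%), and 4 had an unadjusted p under 0.05, as did 1482 of all genes: Canx (-0.29, SE 0.11), Calr (-0.24, SE 0.10), Calr3 (0.43, SE 0.17) and Prss37 (0.52, SE 0.21).

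**Figure D4:**
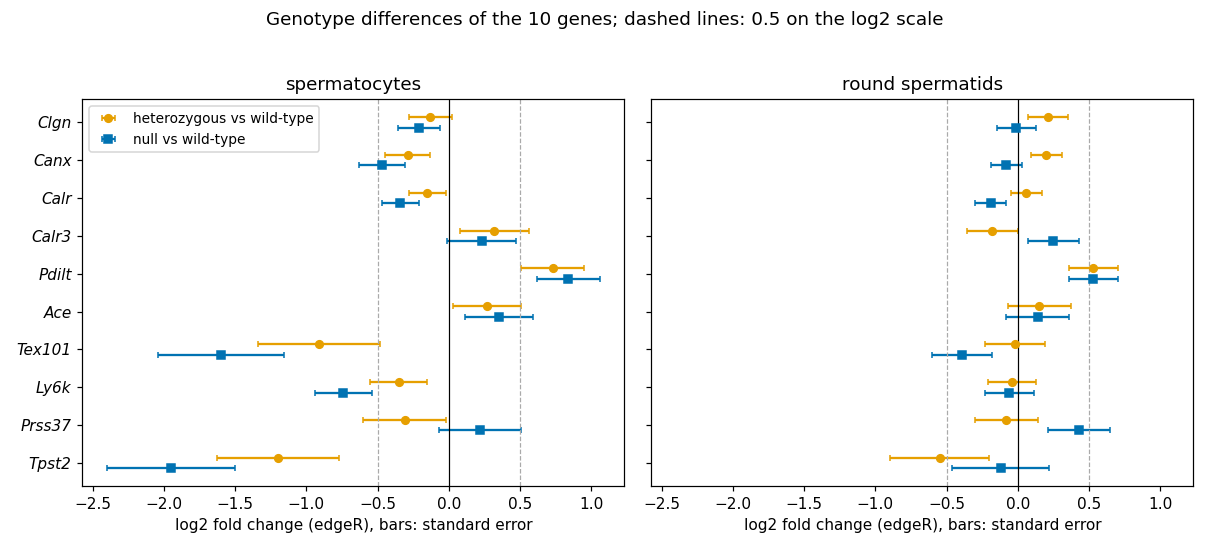
Log2 fold change of the 10 genes in heterozygous and null libraries against wild-type, in spermatocytes (left) and round spermatids (right), from edgeR; points are estimates, bars standard errors and dashed lines the threshold of 0.5. In spermatocytes the null points run from -1.95 for Tpst2 to 0.84 for Pdilt, and in round spermatids from -0.39 for Tex101 to 0.53 for Pdilt.

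The difference between the fractions in the effect of the null genotype was tested in 1 fit of all 6 groups. It was called for no member by edgeR or DESeq2 and for 0% of 20404 genes. An unadjusted p under 0.05 was found for 1215 of all genes and for 4 members, all with a more positive difference in round spermatids: Tpst2 (1.90, SE 0.58), Tex101 (1.28, SE 0.53), Ly6k (0.73, SE 0.29) and Canx (0.44, SE 0.19), each at an edgeR adjusted p of 0.807. That of Tex101 was 0.81 without spermatocyte wild-type replicate 4 and 1.57 without spermatocyte wild-type replicate 5. For the heterozygous genotype no member was called by either tool, again beside 0% of genes. Canx alone had an unadjusted p under 0.05 (0.54, SE 0.19, edgeR adjusted p = 0.637), as did 1576 of all genes. The differences of Tex101, Ly6k and Tpst2 in null spermatocytes were thus not shown to differ from those in round spermatids by this test.

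The proteins that depend on these factors were read from a list of 8 ADAM genes expressed in the testis. Between wild-type fractions, where edgeR called 24.2% of all genes, it called 4 of the 8 higher in round spermatids, Adam1a (1.22, SE 0.18), Adam6b (0.79, SE 0.19), Adam4 (0.73, SE 0.18) and Adam6a (0.72, SE 0.16), and Adam2, the partner chain of fertilin, lower (-0.56, SE 0.12). The list median was 0.34 on the log2 scale beside 0.02 over all genes. Between the heterozygous and between the null fractions edgeR called 4 higher and 0 lower each, beside 8.89% and 17.1% of all genes. Adam2 was thus not called lower there. Adam6a and Adam6b are close copies, and reads that align to both are not counted, so their values are uncertain; Adam4 was chosen by the study from its own expression results. Between null and wild-type spermatocytes edgeR called none and DESeq2, which called 15.6% of all genes, called Adam1a (0.60, SE 0.17), Adam6a (0.77, SE 0.19) and Adam6b (0.85, SE 0.22) higher, with a list median of 0.35 beside -0.03. Adam3 itself differed by 0.24 (SE 0.14, edgeR adjusted p = 0.244) in spermatocytes and by 0.29 (SE 0.13, adjusted p = 0.24) in round spermatids, and is named outside the rule because it is the common client. In null round spermatids DESeq2 called Adam6a (0.59, SE 0.14) and Adam6b (0.61, SE 0.15) higher, beside 3.64% of all genes, and edgeR called none of the 8.

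General folding genes of the endoplasmic reticulum (23 genes, among them the glucosyltransferases, disulfide isomerases and the Hsp70 and Hsp90 chaperones) were lower in wild-type round spermatids for 7 and higher for 0 by edgeR, beside 11.4% and 12.7% of all genes, with a median of -0.35 beside 0.02 over all genes. The Hsp90 chaperone Hsp90b1 (-1.12, SE 0.20), the Hsp70 chaperone Hspa5 (-0.53, SE 0.14) and the folding sensor Uggt2 (-1.31, SE 0.29) were among them, like Clgn and Canx of the members. Between the heterozygous fractions edgeR called 0 of the 23, beside 8.89% of all genes, with a median of -0.09 beside -0.06. Between the null fractions it called 1 lower and 0 higher, beside 17.1% of all genes. In null spermatocytes 19 of the 23 had a negative log2 fold change against wild-type, with a median of -0.39 beside -0.03. EdgeR called none of them and DESeq2 called 2 (6.48% of all genes were called lower), Sdf2l1 (-1.12, SE 0.27) and its partner Dnajb11 (-0.58, SE 0.17). Their summed level was 3113, 3391, 3331 and 2697 CPM in wild-type spermatocytes, where replicate 5 was lowest, against 2083, 2578 and 2569 CPM in the null. The spermatocyte markers were also lower in this comparison, and their part in the values of this list was not tested. In round spermatids of the null the median was -0.09 beside 0.03, and Sdf2l1 (-0.65, SE 0.19) was again called by DESeq2 alone.

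Of 7 other genes required for ADAM3 on sperm, edgeR called Prss55 (1.72, SE 0.26) and Pmis2 (0.88, SE 0.22) higher and Tmprss12 (-0.59, SE 0.20) lower in wild-type round spermatids. Null spermatocytes had no edgeR call in this list, and DESeq2 called Pgap1 (1.08, SE 0.32) higher and Tmprss12 (-0.71, SE 0.24) lower, beside 15.6% of all genes, which is the share for each DESeq2 count in null spermatocytes below. Rnase10 was at -0.47 (SE 0.23) there and was called lower by DESeq2 alone in heterozygous spermatocytes (-0.79, SE 0.24). Another list held 9 genes that build, attach or remodel GPI anchors, needed by Tex101 and Ly6k. Of these, edgeR called Piga (0.86, SE 0.20) and Pgap2 (0.95, SE 0.27) higher and Pigk (-0.69, SE 0.14) and Pigb (-0.88, SE 0.28) lower between wild-type fractions, again beside 24.2% of all genes. Pigk (-0.53, SE 0.17) was the only one that DESeq2 called in null spermatocytes, and edgeR called 0 of them. Of 5 relatives of Tex101 and Ly6k with the same LY6 fold, edgeR called Cd59b (1.09, SE 0.24) and Spaca4 (0.56, SE 0.20) higher between wild-type fractions. Spaca4 was called by DESeq2 in null spermatocytes (0.69, SE 0.24), and of the 4 tested genes of tyrosine sulfation Slc35b3, a carrier of the sulfate donor, was called lower (-0.76, SE 0.24). Neither Spaca4 nor Slc35b3 had an edgeR call there.

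**Figure D5:**
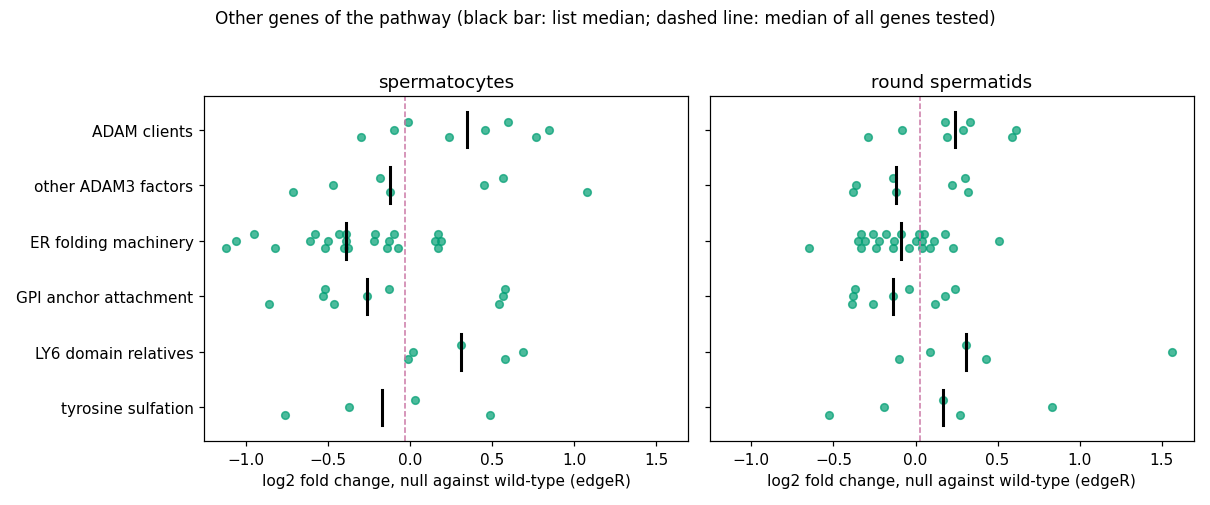
Log2 fold change, null against wild-type (edgeR), of each gene of 6 pathway lists in spermatocytes (left) and round spermatids (right); points are genes, black bars list medians and the dashed line the median of all genes tested. The general folding genes have a median of -0.39 in spermatocytes and -0.09 in round spermatids, and the ADAM clients 0.35 and 0.24.

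Over the 21 libraries the members fell into sets whose levels ran together (Pearson correlation of log2 CPM, given as a description, since the libraries share fraction, genotype and purity). Ace and Prss37 correlated at 0.96, Calr3 and Prss37 at 0.95 and Calr3 and Ace at 0.93. Clgn ran against them, at -0.83 with Ace. Canx correlated at 0.86 with Calr, at 0.77 with Tex101 and at 0.74 with Clgn. Pdilt correlated at -0.83 with Tpst2 and -0.73 with Tex101, and at 0.47 with Calr3, 0.42 with Ace and 0.36 with Prss37.

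Among all genes that passed the filter, Clgn was closest to Erlec1 (0.95), Hsp90b1 (0.94) and Dnajc10 (0.93), and Calr to Pdia6 (0.93), Hdgfl2 (0.91) and Alg8 (0.90). Canx was closest to Spcs3 (0.89), Abca5 (0.88) and Ahcyl1 (0.87), and Tex101 to Uap1 (0.92), Ssr1 (0.91) and Smim7 (0.90). Calr3 was closest to 1700092M07Rik, Cst8 and Cpxm1 (0.99 each), Ace to Actl11 (1.00), Oplah and Vars (0.99 each), Prss37 to Fbxo39 (1.00), Wbp2nl and Ubqln5 (0.99 each), and Pdilt to Bbx, Psd3 and Izumo1 (0.97 each). Ly6k was closest to Npm3 (0.92), Zmat5 (0.87) and Fis1 (0.86), and Tpst2 to Ncaph2 (0.90), Tex19.2 and Mettl2 (0.89 each).

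Exons of Pdilt, Ace and Ly6k overlap exons of genes on the opposite strand, which had 1 to 12 counts (Acsm5), 1 to 11 (Gm37518), 154 to 535 (Gm11651, opposite Ace) and 1 to 20 (Gm17189, opposite Ly6k) per library. Of the 31-base words in the exons of Calr, 1.93% also occur in Calr-ps, which had 0 counts in every library, and of those of Tex101 0.726% occur in BC049730. No other member shared such a word with another gene.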

How the data were processed

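The authors deposited 1 table of raw counts per gene for 24 libraries. Per the labels and the paper's methods, directional poly(A) libraries were made, and reads were trimmed with TrimGalore and aligned with STAR, whose gene counting option made the table. In that option reads with several alignments are not counted. The submitters' processing notes name mm10. The strand column and annotation release are not given in the sources used here. All 55536 identifiers were found in GENCODE M21 (GRCm38), and 0 columns had no sample.

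Groups came from the labels. The 3 libraries labelled outliers were left out, leaving 21. Counts were filtered (10 or more in 3 or more libraries), scaled by TMM and tested with edgeR 4.0.16 (R 4.3.3, quasi-likelihood, 2-sided), each fraction on its own with 3 genotypes, or both fractions in 1 fit of 6 groups for fraction contrasts. Calls required an absolute log2 fold change above 0.5 and, after Benjamini-Hochberg adjustment over all genes tested, p under 0.05. DESeq2 1.42.0, other scaling, no filter, only the groups compared, library-number and replicate terms, added outliers and leaving out each library were alternatives. Standard errors are those implied by the quasi-likelihood F statistic. Scripts were tested on simulated counts. Levels per kb divide CPM by the length of all exons of a gene.

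All 10 members were named. Of the pathway lists, genes called in a comparison or with the 2 largest or smallest null differences in a fraction could be named, and for likeness the 3 genes with the highest correlation. Members and lists were chosen with earlier results of these data known. No pair of libraries of a group was a repeat deposit (chi-square per gene 9.81 to 181 over 37 pairs). The labels do not tie libraries to animals beyond pooled testes, so p-values measure the spread between these libraries. Depth and errors cover 3 or 4 libraries per group, and counting error is small except for Tpst2.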

Additional observations from a re-analysis of the deposited data

Results flagged for a closer look

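In 3 of 30 groups of 4 libraries 1 library lay far from the rest of its group, where chance flags about 1 in 20. Ace had 194 CPM in wild-type spermatocyte replicate 4, below the others of its group. Tex101 had 61.6 CPM in null round spermatid replicate 1 and Ly6k 76.8 CPM in heterozygous round spermatid replicate 1, both above the others.

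The libraries that the labels call outliers, which entered no comparison except as an alternative, lay above every wild-type library of their fraction in 11 of 30 member values and below every one in 14. Those above were, in spermatocyte wild-type replicate 3, Ace (651 CPM), Pdilt (210), Calr3 (83.5) and Prss37 (69.6), and in spermatocyte heterozygous replicate 4 Ace (553 CPM), Pdilt (324), Calr3 (76.7) and Prss37 (61). In round spermatid wild-type replicate 3 they were Clgn (1133 CPM), Pdilt (249) and Canx (171). These levels were scaled with all 24 libraries together.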

How the results depend on the processing

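Calls between genotypes depended on the tool and on wild-type spermatocyte replicate 5, and calls between the wild-type and between the heterozygous fractions on the libraries labelled outliers, while the 3 calls between the null fractions remained with those libraries added back. The cause was not tested. For null against wild-type spermatocytes 0 members were called, but 4 with both fractions in 1 fit, 4 by DESeq2, 4 with no filter, 3 with only the groups compared and 0 to 5 when 1 library was left out. For heterozygous against wild-type spermatocytes the counts were 2, 1 and 2 with both fractions in 1 fit, by DESeq2 and with no filter, and 0 to 3 with 1 library left out. DESeq2 called 1 member for null against wild-type round spermatids. For wild-type round spermatids against spermatocytes 6 members were called. The count was 3 with only the groups compared, 0 with the outlier libraries added back and 3 to 8 with 1 library left out. Over all genes 4532 of 18629 were called with only the groups compared, against 4934 of 20404 in the main fit. For the heterozygous fractions 0 members were called with the outlier libraries added back. Calls over all genes moved too: for null against wild-type spermatocytes 8 genes by edgeR became 3026 by DESeq2, 4008 with both fractions in 1 fit, 2623 with no filter and 1303 with only the groups compared, and for heterozygous against wild-type spermatocytes 5 became 1228, 2140 and 1481 under the first 3 of these. Lengths from the longest transcript moved 21 of 60 levels per kb by more than 1 SD.

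Uncalled values near 0 changed sign in 8 of 442 values under other settings and in 8 of 431 with 1 library left out. Clgn in null round spermatids gave 0.01 with both fractions in 1 fit, 0.00 by DESeq2 and with its size factors, 0.02 with no filter and -0.10 to 0.06 with 1 library left out. Ly6k there gave 0.07 with the outlier libraries added back and -0.23 to 0.05 with 1 left out, and Tpst2 gave 0.01 with a library-number term, the added libraries or the replicate block, and -0.34 to 0.05. Prss37 in null spermatocytes ranged from -0.06 to 0.41 with 1 library left out.

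Replicate numbers did not pair the libraries: deviations of same-numbered libraries correlated above 0.1 in 4 of 7 pairs in spermatocytes, 1 of 10 in round spermatids and 4 of 9 between fractions (8 of 9 for consecutive library numbers). Fractions were compared in the main fits without a pairing term. The labels do not say whether consecutive numbers mark a shared preparation. With a replicate block, 3 members were called for null against wild-type spermatocytes and 8 between wild-type fractions, and 5 between wild-type fractions with a block of consecutive numbers, where Clgn (-0.47, edgeR adjusted p = 0.0245) fell short on size. The replicate block called 687 of 19450 genes for the former comparison (8 without) and 6024 of 20404 between wild-type fractions, and the consecutive block 4931 (4934 without). Depth limits Tpst2 most, at 13 to 110 counts per library.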
